A study of Mus musculus with 30 samples.

Results

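The genes described here are 9 Toll-like receptor genes, Tlr1, Tlr2, Tlr3, Tlr4, Tlr6, Tlr7, Tlr8, Tlr9 and Tlr13, and Myd88, the adaptor gene of the family. They were taken by mouse gene symbol and Ensembl identifier from the 54532 genes of the count tables, so that 10 of 54532 genes are followed. All 10 passed the filter on low counts in every comparison. RNA of blood platelets and of peripheral blood mononuclear cells (PBMCs) was sequenced from female C57BL/6 mice, aged between 6 and 8 weeks when the experiment began. O group mice were inoculated under the right flank with 100000 cells of B16F10, a mouse melanoma line of the same strain, S group mice received 2000 such cells and had no visible tumor at autopsy on day 14, and C group mice were injected with the carrier, Hanks' balanced salt solution (HBSS). Blood of all groups was taken 14 days after injection. Each group had 5 libraries per tissue, 30 in all, and each library was made from the RNA of several mice: 10 per library in platelet S group by the labels (the study's methods differ slightly for some of these pools), 5 or 10 in platelet C group, 5 in PBMC C group, 4 or 5 in PBMC S group and 3 to 5 in O group of both tissues. A P value here therefore measures the spread between pools. S group is defined by the number of cells injected and by the autopsy, not by a count of tumor cells.

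Toll-like receptors recognize molecules that microbes or damaged cells release. Tlr1, Tlr2, Tlr4 and Tlr6 sit in the cell membrane and bind lipoproteins and lipopolysaccharide, whereas Tlr3, Tlr7, Tlr8, Tlr9 and Tlr13 sit in endosomes and bind nucleic acids. After binding, all of them except Tlr3 recruit MyD88, which passes the signal through IRAK kinases and TRAF6 to NF-kappaB and interferon regulatory factors, while Tlr3 signals through TRIF, encoded by Ticam1. Platelets have no nucleus and carry mRNA received from megakaryocytes, and both platelets and leukocytes are known to hold Toll-like receptors.

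In mouse build GRCm38 with the GENCODE M21 annotation, all 10 genes are protein coding. Tlr1 (chr5:64924679-64933563, minus strand) and Tlr6 (chr5:64952031-64960097, minus strand) are neighbors, as are Tlr8 (chrX:167242696-167264329, minus strand) and Tlr7 (chrX:167304929-167330558, minus strand). Tlr13 is also on the X chromosome (chrX:106143204-106160493, plus strand). Tlr2 is at chr3:83836272-83841767 on the minus strand, Tlr4 at chr4:66827584-66930284 on the plus strand and Tlr3 at chr8:45395665-45411080 on the minus strand. Tlr9 (chr9:106222598-106226883, plus strand) and Myd88 (chr9:119335934-119341411, minus strand) share chromosome 9. Exons of Tlr3 share 381 bases with Gm45542, and exons of Myd88 share 290 bases with Acaa1a, both on the opposite strand. The strand setting of the counting is not given in the sources used here, so reads from these shared bases could belong to either gene. Tlr3 and Myd88 values carry that limit throughout.

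Myd88, Tlr8, Tlr9 and Tlr13 were the members that passed an unadjusted P of 0.05 in at least 1 comparison of groups, and the 250 bases before their RefSeq start sites are shown for that reason (RefSeq, GRCm38.p6, written 5′ to 3′ on the strand of the gene). Capitals mark matches, on either strand, to 5 motifs: the interferon-stimulated response element (GAAA, 2 bases of any kind, GAAA), the PU.1 core GAGGAA, the AP-1 site TGANTCA, the cAMP response element core TGACG, and the NF-kappaB motif. Of 32851 promoter windows of this length, 2.98% held the first, 23.3% the PU.1 core, 6.75% the AP-1 site, 17.8% the cAMP response element core and 7.25% the NF-kappaB motif.
Tlr9 (chr9:106222348-106222597, plus strand): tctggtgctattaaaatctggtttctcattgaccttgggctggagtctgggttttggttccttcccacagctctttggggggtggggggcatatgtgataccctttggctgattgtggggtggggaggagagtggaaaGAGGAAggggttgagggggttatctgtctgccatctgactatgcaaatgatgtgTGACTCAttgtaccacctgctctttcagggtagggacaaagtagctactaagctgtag
Tlr13 (chrX:106143025-106143274, plus strand): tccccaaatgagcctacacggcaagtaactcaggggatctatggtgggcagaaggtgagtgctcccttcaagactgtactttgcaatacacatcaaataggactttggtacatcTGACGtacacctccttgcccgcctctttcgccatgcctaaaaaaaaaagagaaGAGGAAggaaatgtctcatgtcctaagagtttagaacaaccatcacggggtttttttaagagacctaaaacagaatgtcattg
Tlr8 (chrX:167264330-167264579, minus strand): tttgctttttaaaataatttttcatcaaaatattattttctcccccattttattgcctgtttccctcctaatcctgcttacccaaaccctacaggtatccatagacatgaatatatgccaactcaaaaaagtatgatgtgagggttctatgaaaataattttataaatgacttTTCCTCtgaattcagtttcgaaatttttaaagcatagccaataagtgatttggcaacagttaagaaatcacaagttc
Myd88 (chr9:119340019-119340268, minus strand): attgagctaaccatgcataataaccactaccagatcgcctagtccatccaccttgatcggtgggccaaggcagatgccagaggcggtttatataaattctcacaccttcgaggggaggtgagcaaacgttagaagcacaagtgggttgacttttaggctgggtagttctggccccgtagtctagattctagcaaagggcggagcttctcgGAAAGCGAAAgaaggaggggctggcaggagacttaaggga

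The window of Tlr9 held the PU.1 core from -112 to -107 and the AP-1 site from -58 to -52, counted from the start site, and it overlapped no annotated exon. The window of Tlr13 held the PU.1 core from -83 to -78 and the cAMP response element core from -136 to -132, with 71 of its 250 bases in an annotated exon. In Tlr8 the PU.1 core stood on the other strand from -77 to -72, so that its capitals read TTCCTC. Myd88 held an interferon-stimulated response element from -40 to -31, with 23 bases of its window in an annotated exon. The matches describe letters only, and none of those in these 4 windows overlapped another motif.

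Counts on genes ranged from 12259036 to 25360080 per platelet library and from 13390983 to 15973449 per PBMC library. Platelet samples carry PBMC as their cell type tag, but 11 of the 11 platelet and megakaryocyte markers that passed the filter were higher in the libraries titled Platelet, with a median log2 difference of 4.28. Leukocyte transcripts were nevertheless present in platelet libraries, and none of the 10 B cell, 12 T cell or 12 monocyte and macrophage markers was at 0 counts in any of them. Of 11 neutrophil markers, 2 were at 0 counts in platelet S group replicate 3. In bulk libraries fewer cells of a type and less RNA per cell cannot be told apart. Hemoglobin transcripts took 4.02% to 39.0% of the counts of a platelet library and 3.23% to 24.5% of a PBMC library. Within PBMCs they averaged 16.7% ± 6.63 (SD) in O group, 5.92% ± 2.27 in S group and 5.21% ± 2.45 in C group. The 7 melanocyte and melanoma markers summed to 1.51 to 6.30 CPM in platelet libraries and to 20.5 to 44.4 CPM in PBMC libraries, including 31.4 to 44.4 CPM in PBMCs of C group. Of these markers Slc45a2, Mlana, Tyr and Tyrp1 were at 0 in 15, 13, 11 and 11 of 15 platelet libraries, and in 14, 14, 12 and 14 of 15 PBMC libraries, and Dct was at 0 in 13 PBMC libraries. Platelet S group replicate 5 and platelet O group replicate 1 stood apart from their groups for several of the genes described here, as values without them show below. PBMC S group replicate 3 had 32900 genes with at least 1 count, where the other 14 PBMC libraries had 20540 to 22991.

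In platelets, levels are given as CPM, counts scaled to the library size with TMM normalization over the 15 platelet libraries, in the order of replicates 1 to 5. The first comparison asked which transcripts differed between mice given 2000 tumor cells (S group) and HBSS controls (C group). Among the 10 genes, 1 had an unadjusted P under the study's threshold of 0.05, Tlr9, which was higher in S group, against 6.42% of the 13268 genes tested. None passed a Benjamini-Hochberg adjusted P of 0.05, which 0.00754% of all genes passed, and adjusted P ranged from 0.746 to 0.998. The median log2 fold change of the 10 genes was 0.36, beside -0.01 over all genes tested, and without S group replicate 5 it was 0.01, beside -0.03.

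Tlr9, the endosomal receptor for unmethylated CpG DNA, had 8.49, 6.00, 8.52, 7.32 and 18.9 CPM in S group, against 7.05, 3.89, 4.28, 5.96 and 3.93 CPM in C group. In O group it had 4.57, 4.95, 6.35, 3.18 and 6.66 CPM. All S group libraries except replicate 2 lay above the highest library of the other groups, and the ranges overlapped. The log2 fold change of Tlr9 in S group against C group was 0.97 (SE 0.30, 95% interval 0.32 to 1.62, unadjusted P = 0.00627, adjusted P = 0.746, edgeR quasi-likelihood test). Against O group it was 0.91 (SE 0.33, interval 0.19 to 1.62, unadjusted P = 0.0172, adjusted P = 0.302). Replicate 5 of S group carried a large share of both values. Without it Tlr9 was higher by 0.58 against C group (unadjusted P = 0.0187) and by 0.56 against O group (unadjusted P = 0.0385).

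**Figure D1:**
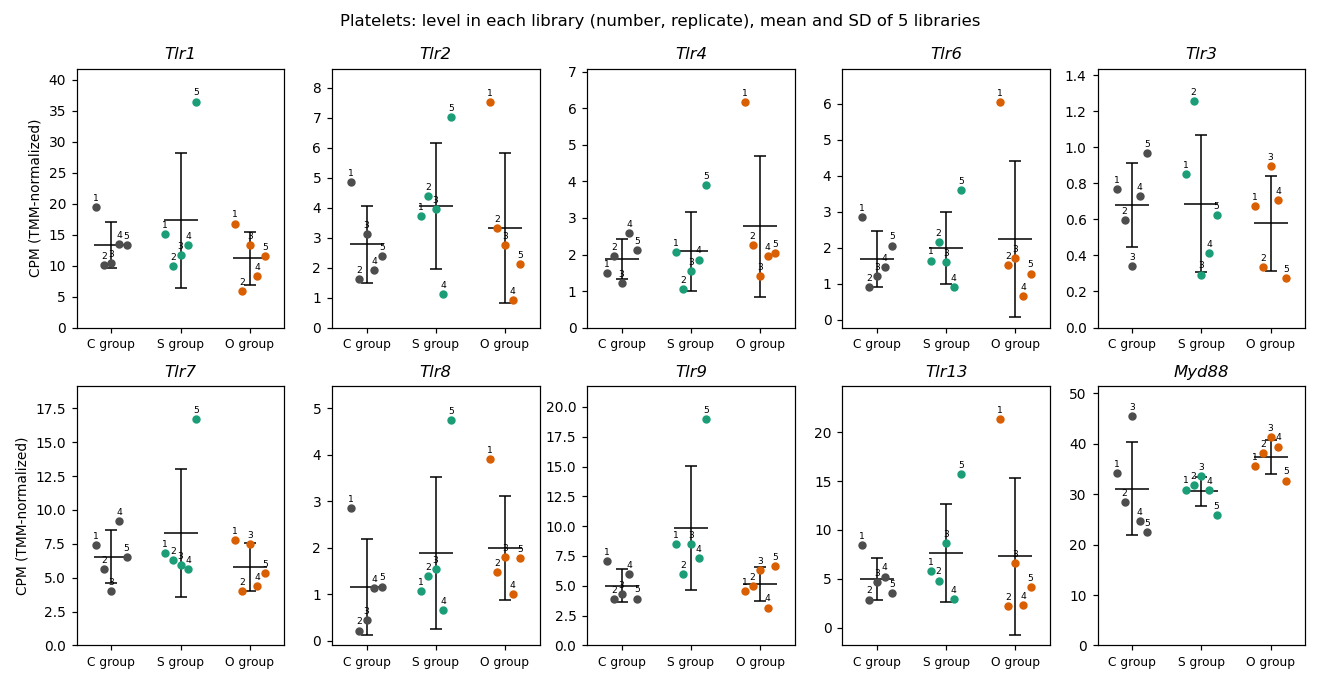
Level of each gene (y axis, CPM with TMM normalization) in the 15 platelet libraries by group. Points are libraries numbered by replicate, horizontal bars are means and vertical bars SD of 5 libraries. Replicate 5 of S group is the highest S group library for Tlr1, Tlr2, Tlr4, Tlr6, Tlr7, Tlr8, Tlr9 and Tlr13. Replicate 1 of O group is the highest O group library for Tlr1, Tlr2, Tlr4, Tlr6, Tlr7, Tlr8 and Tlr13. For Tlr9, 4 of 5 S group libraries lie above 7.05 CPM, the highest C group library.

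B cell transcripts moved with Tlr9. The summed level of the 10 B cell markers was 717 to 1520.2 CPM in S group, 674 to 793 CPM in C group and 406 to 766 CPM in O group, and the highest sum belonged to S group replicate 5, the library with the highest Tlr9. Of these 10 markers, 4 were higher in S group than in C group at an unadjusted P under 0.05 and none was lower, and 8 were higher in S group than in O group. T cell markers were higher in 6 of 12 against C group and in 10 of 12 against O group. With a leukocyte marker score as a covariate, the log2 fold change of Tlr9 was 0.57 against C group (unadjusted P = 0.0613) and 0.40 against O group (unadjusted P = 0.211), and neither passed the threshold. Markers of plasmacytoid dendritic cells, which are known for high Tlr7 and Tlr9, summed to 117 to 138 CPM in S group, against 104 to 137 CPM in C group, with 1 of 7 tested markers higher.

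**Figure D2:**
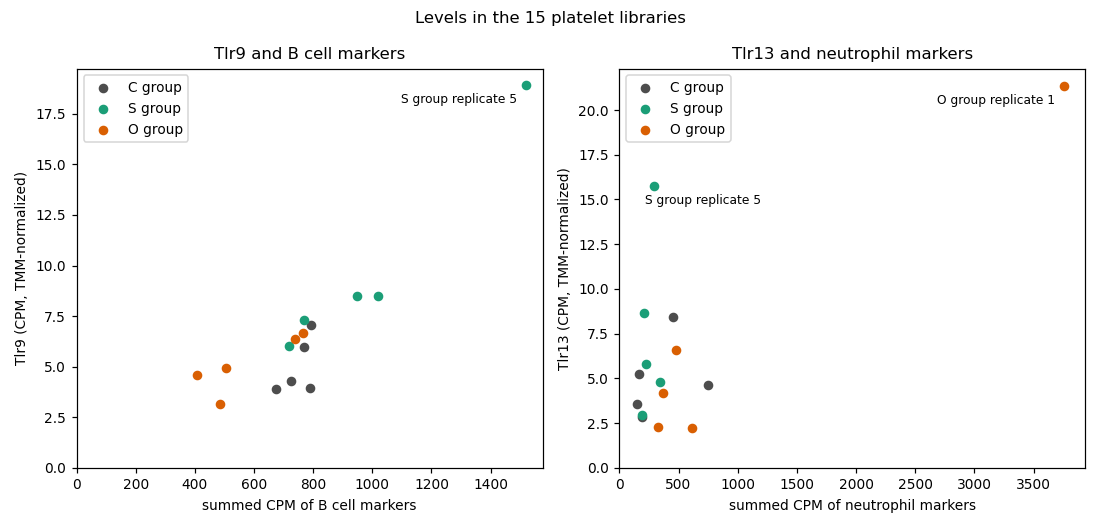
Tlr9 against the summed level of 10 B cell markers (left) and Tlr13 against the summed level of 11 neutrophil markers (right) in the 15 platelet libraries, all axes in CPM with TMM normalization. Each point is a library colored by group. S group replicate 5 is the highest point for Tlr9 and for B cell markers, and O group replicate 1 is the highest for Tlr13 and for neutrophil markers.

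The other nucleic acid receptors had no call in S group against C group. Tlr7, a receptor for single-stranded RNA, had 6.84, 6.28, 5.95, 5.67 and 16.7 CPM in S group, against 7.41, 5.64, 3.98, 9.20 and 6.51 CPM in C group, with a log2 fold change of 0.34 (SE 0.32, unadjusted P = 0.311). Without S group replicate 5 the value was -0.09. Tlr13, which binds a sequence of bacterial ribosomal RNA, had 5.78, 4.82, 8.66, 2.94 and 15.8 CPM in S group, against 8.41, 2.86, 4.62, 5.23 and 3.55 CPM in C group. The difference was 0.62 (SE 0.40, unadjusted P = 0.144), and 0.14 without S group replicate 5. Tlr8, related to Tlr7, was scarce, with 0.662 to 4.74 CPM in S group, against 0.214 to 2.84 CPM in C group, from 5 to 91 counts per library. Its log2 fold change of 0.72 (SE 0.63, unadjusted P = 0.271) became 0.00 without S group replicate 5. Tlr3, the receptor for double-stranded RNA, was the least abundant, at 4 to 18 counts per library, and its value was 0.01 (SE 0.44).

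Receptors of the cell membrane also overlapped between S group and C group. Tlr1, which pairs with Tlr2 to bind triacylated lipoproteins, had 15.1, 9.91, 11.7, 13.3 and 36.5 CPM in S group, against 19.4, 10.0, 10.4, 13.5 and 13.3 CPM in C group. The log2 fold change was 0.38 (SE 0.32, unadjusted P = 0.261), and -0.10 without S group replicate 5. Tlr2, the common partner of Tlr1 and Tlr6, had 1.12 to 7.03 CPM in S group, against 1.62 to 4.86 CPM in C group, a difference of 0.53 (SE 0.41, unadjusted P = 0.213), and 0.22 without S group replicate 5. Tlr4, the lipopolysaccharide receptor, differed by 0.15 (SE 0.36) and Tlr6, which pairs with Tlr2 to bind diacylated lipoproteins, by 0.23 (SE 0.40). At 1.05 to 3.90 CPM for Tlr4 and 0.910 to 3.59 CPM for Tlr6 in S group, the 95% intervals of these values ran from -0.62 to 0.92 and from -0.63 to 1.08. Without S group replicate 5, Tlr4 was at -0.20 and Tlr6 at -0.11. Without C group replicate 1, Tlr8 (1.35, unadjusted P = 0.0486) and Tlr13 (0.86, unadjusted P = 0.0495) passed the unadjusted threshold, as did Tlr13 (0.82, unadjusted P = 0.0417) and Tlr2 (0.78, unadjusted P = 0.0356) without S group replicate 4. Adjusted P of these values was between 0.435 and 0.666. With each library left out in turn, 4.14% to 11.4% of all genes tested were called. With the leukocyte score as a covariate, the values of Tlr1, Tlr2, Tlr6, Tlr8 and Tlr13 were below 0, between -0.07 and -0.25, as was Myd88 at -0.12, while Tlr7 was at 0.02, Tlr4 at 0.04 and Tlr3 at 0.12, and none of these 9 passed.

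Myd88, the adaptor, was the most abundant of the 10 transcripts in platelets. It had 30.9, 31.8, 33.5, 30.9 and 25.8 CPM in S group, while C group had 34.1, 28.5, 45.5, 24.6 and 22.5 CPM and O group 35.6, 38.2, 41.3, 39.5 and 32.7 CPM. All O group libraries except replicate 5 lay above the highest S group library. S group and C group differed by -0.04 (SE 0.18, interval -0.43 to 0.35). Against O group the log2 fold change was -0.30 (SE 0.13, unadjusted P = 0.0413, adjusted P = 0.344). This call did not hold when any 1 of 7 libraries was left out, S group replicates 1, 2, 4 and 5 and O group replicates 2, 3 and 4 (log2 fold changes from -0.23 to -0.32), nor with the leukocyte score as a covariate (-0.24, unadjusted P = 0.148).

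In platelets of S group against O group, 2 of the 10 genes passed the unadjusted threshold, Tlr9 higher and Myd88 lower in S group, against 13.9% of 13306 genes. None of the 13306 genes passed the adjusted threshold in this edgeR comparison, whereas 1849 had an unadjusted P under 0.05. The other 8 values lay between -0.36 for Tlr4 and 0.62 for Tlr1, with unadjusted P from 0.128 to 0.915. The value of Tlr3 was 0.28 (SE 0.49). Several of the others rested on single libraries. Without S group replicate 5, Tlr1 moved from 0.62 to 0.18, Tlr7 from 0.51 to 0.11, Tlr2 from 0.31 to 0.03, Tlr4 from -0.36 to -0.71, Tlr6 from -0.11 to -0.43 and Tlr8 from -0.06 to -0.74. Without O group replicate 1, Tlr2 was at 0.77, Tlr4 at 0.06, Tlr6 at 0.56 and Tlr8 at 0.25. Tlr13 was the most uneven of them, since O group held 21.4, 2.20, 6.57, 2.27 and 4.19 CPM and the first of these exceeded every S group library. Its log2 fold change was 0.09 (SE 0.62), 0.94 (unadjusted P = 0.068) without O group replicate 1 and -0.36 without S group replicate 5. Neutrophil markers summed to 3756 CPM in O group replicate 1 and to 323 to 613 CPM in the other 4 libraries of O group, and 6 of the 10 tested neutrophil markers were lower in S group than in O group. Hemoglobin took its largest share of any library, 39.0%, in the same library. With the leukocyte score as a covariate the Tlr13 value turned to -0.83 (unadjusted P = 0.0258, adjusted P = 0.294), and Tlr8 (-1.08) and Tlr6 (-0.86) also passed the unadjusted threshold.

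In O group against C group, mice with large tumors against controls, none of the 10 genes was called in platelets, beside 4.79% of 13270 genes. Log2 fold changes ran from -0.28 for Tlr3 to 0.75 for Tlr8, which had 3.90, 1.46, 1.79, 1.01 and 1.77 CPM in O group and 2.84, 0.214, 0.437, 1.12 and 1.16 CPM in C group. The Tlr8 value had an SE of 0.60 and an unadjusted P of 0.234. Myd88 was 0.26 (SE 0.19, unadjusted P = 0.209), Tlr4 0.50 (SE 0.40), Tlr7 -0.20 (SE 0.27) and Tlr9 0.03 (SE 0.26, interval -0.54 to 0.60). Without O group replicate 1, Tlr13 moved from 0.51 to -0.38, Tlr6 from 0.32 to -0.39, Tlr2 from 0.20 to -0.30, Tlr4 from 0.50 to 0.05, Tlr8 from 0.75 to 0.40 and Tlr1 from -0.27 to -0.45. The median of the 10 genes was 0.23 with that library and -0.30 without it. Control libraries changed calls too, since Tlr8 was at 1.43 (unadjusted P = 0.0299) without C group replicate 1 and Myd88 at 0.44 (unadjusted P = 0.0159) without C group replicate 3. Of the markers tested, 4 of 10 B cell, 6 of 12 T cell and 1 of 9 NK cell markers were lower in O group. Neutrophil markers were higher in 4 of 10 (median log2 fold change 1.97). Their part in these values was not tested beyond a fit with the leukocyte score as a covariate. All 3 platelet comparisons share libraries in pairs, and their values are therefore not independent of each other.

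**Figure D3:**
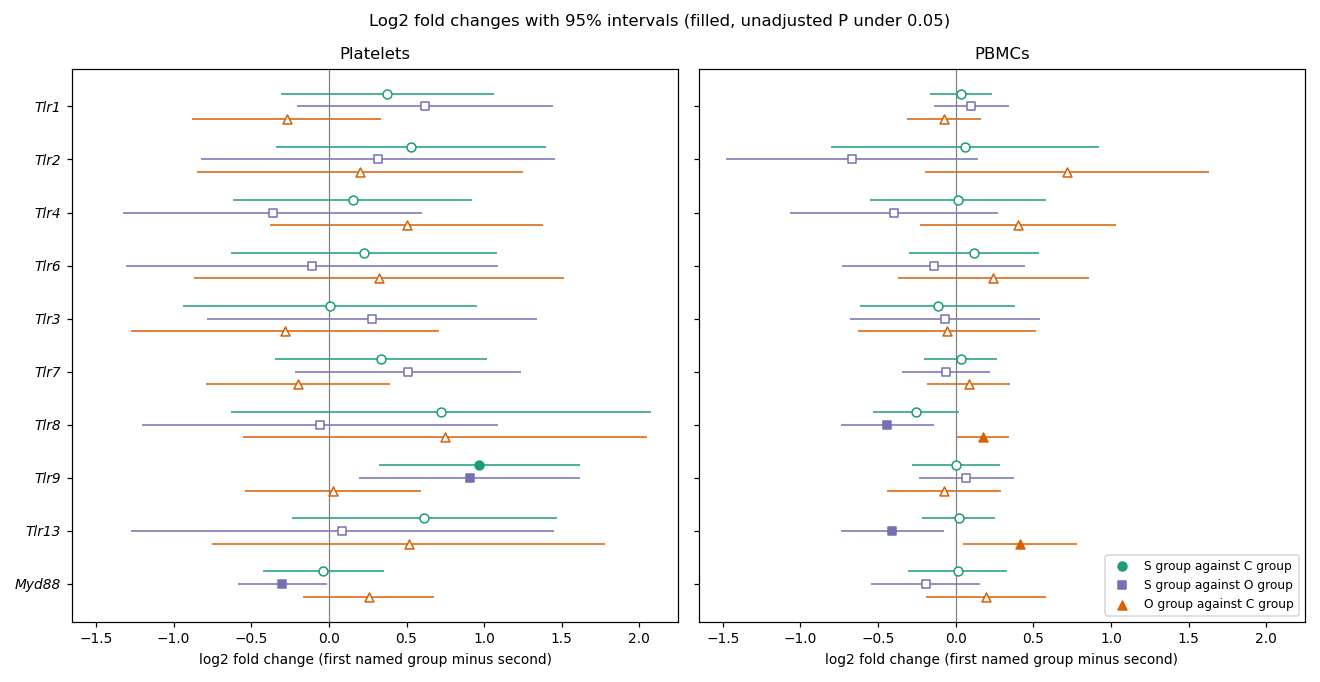
Log2 fold change of each gene (x axis) with its 95% interval for S group against C group (circles), S group against O group (squares) and O group against C group (triangles), in platelets (left) and PBMCs (right). Filled symbols had an unadjusted P under 0.05: Tlr9 and Myd88 in platelets, Tlr8 and Tlr13 in PBMCs. Intervals of the other values include 0.

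In PBMCs, levels are CPM with TMM normalization over the 15 PBMC libraries. In S group against C group, none of the 10 genes was called, beside 2.64% of 15139 genes at the unadjusted threshold (1.23% higher, 1.41% lower) and 0.0330% at the adjusted threshold, and log2 fold changes ran from -0.26 for Tlr8 to 0.12 for Tlr6. Tlr9, called in platelets, had 48.6, 40.8, 52.3, 45.6 and 53.1 CPM in PBMCs of S group and 62.3, 40.5, 42.5, 41.7 and 55.1 CPM in C group. It differed by 0.00 (SE 0.13, interval -0.28 to 0.29). Myd88 differed by 0.01 (SE 0.15), Tlr7 by 0.03 (SE 0.11), Tlr1 by 0.04 (SE 0.09), Tlr13 by 0.02 (SE 0.11), Tlr4 by 0.02 (SE 0.26) and Tlr3 by -0.12 (SE 0.23). The Tlr4 value was -0.27 without S group replicate 4, which had the highest Tlr4 of its group (18.8 CPM, next 10.0). Tlr2, at 0.06 (SE 0.40), had the widest spread, with 36.8 to 135 CPM in S group, against 33.1 to 148 CPM in C group. Its lowest library was replicate 1 in all 3 groups, and replicates 3 and 4 held its highest values in all 3. With replicate number as a block, 1 of the 10 genes, Tlr8, was lower in S group than in C group (-0.27, unadjusted P = 0.0228, adjusted P = 0.999), beside 4.30% of the genes tested. Without the block, Tlr8 was at -0.33 (unadjusted P = 0.0262, beside 2.90% of genes tested) when S group replicate 3, the library with the most detected genes, was left out, and at -0.32 (unadjusted P = 0.032) when replicate 5 was.

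In PBMCs of S group against O group, Tlr8 and Tlr13 passed the unadjusted threshold, 2 of the 10 genes and both lower in S group, against 12.2% of 14686 genes, and none of these genes passed the adjusted threshold in edgeR, although 1796 had an unadjusted P under 0.05. Tlr8 had 20.5, 23.3, 27.4, 16.5 and 26.8 CPM in S group, 33.5, 29.8, 32.2, 28.1 and 32.0 CPM in O group and 28.8, 25.4, 27.2, 26.4 and 30.1 CPM in C group. All S group libraries lay below all O group libraries, a separation shown by 1 of the 10 genes and by 1.87% of all genes tested (0.844% lower). The log2 fold change was -0.44 (SE 0.14, interval -0.74 to -0.14, unadjusted P = 0.00852, adjusted P = 0.314).

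Tlr13 had 78.2, 69.7, 88.8, 89.8 and 78.2 CPM in S group, against 122, 86.6, 95.6, 148 and 86.0 CPM in O group. Replicates 1 and 4 of O group were the highest, and the ranges overlapped. Its log2 fold change was -0.41 (SE 0.15, unadjusted P = 0.0215, adjusted P = 0.344). Without O group replicate 4 it was -0.27 (unadjusted P = 0.051), and without S group replicate 2 it was -0.36 (unadjusted P = 0.0535), past the threshold in neither case. Without S group replicate 3, Tlr8 was at -0.52 (unadjusted P = 0.00402), Tlr13 at -0.45 (unadjusted P = 0.0232) and Tlr2 also passed (-0.89, unadjusted P = 0.0398), beside 12.8% of genes tested. With the leukocyte score as a covariate both genes stayed past the threshold, Tlr8 at -0.45 (unadjusted P = 0.00526) and Tlr13 at -0.37 (unadjusted P = 0.0026). The mean score was 6.79 in S group and 6.83 in O group. It averages marker lists that moved in opposite directions here, so this fit cannot adjust for a shift of a single cell type. With replicate number as a block, 4 of the 10 genes were lower in S group, beside 13.8% of genes tested: Tlr2 (-0.68, unadjusted P = 0.00155), Tlr4 (-0.39, unadjusted P = 0.0394), Tlr8 (-0.46, unadjusted P = 0.00316) and Tlr13 (-0.38, unadjusted P = 0.0103). Adjusted P of these 4 was between 0.340 and 0.350.

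The other 8 genes did not pass with all libraries and no block. Tlr2 had the largest log2 fold change of the 10, -0.67 (SE 0.37, unadjusted P = 0.0984), and it also passed without O group replicate 1 (-0.81, unadjusted P = 0.0439). Tlr4 was at -0.40 (SE 0.30), and at -0.67 (unadjusted P = 0.0309) without S group replicate 4. Myd88 was at -0.19, Tlr6 at -0.14, Tlr3 at -0.07, Tlr7 at -0.06, Tlr9 at 0.07 and Tlr1 at 0.10, with unadjusted P from 0.252 to 0.810.

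Cell type markers differed between the same PBMC groups. Of the markers tested, 11 of 12 T cell and 9 of 9 NK cell markers were higher in S group than in O group, and 3 of 11 neutrophil, 2 of 12 monocyte and macrophage and 8 of 8 erythroid markers were lower. Monocyte and macrophage markers, from cells known to carry Tlr8 and Tlr13, summed to 4950 to 8394 CPM in S group, against 8225 to 10267 CPM in O group. The lowest sum, in S group replicate 4, came from the library with the lowest Tlr8, which also had the highest Tlr13 of S group (89.8 CPM). The covariate fit above cannot separate these shifts, and their part in the Tlr8 and Tlr13 values was not tested.

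**Figure D4:**
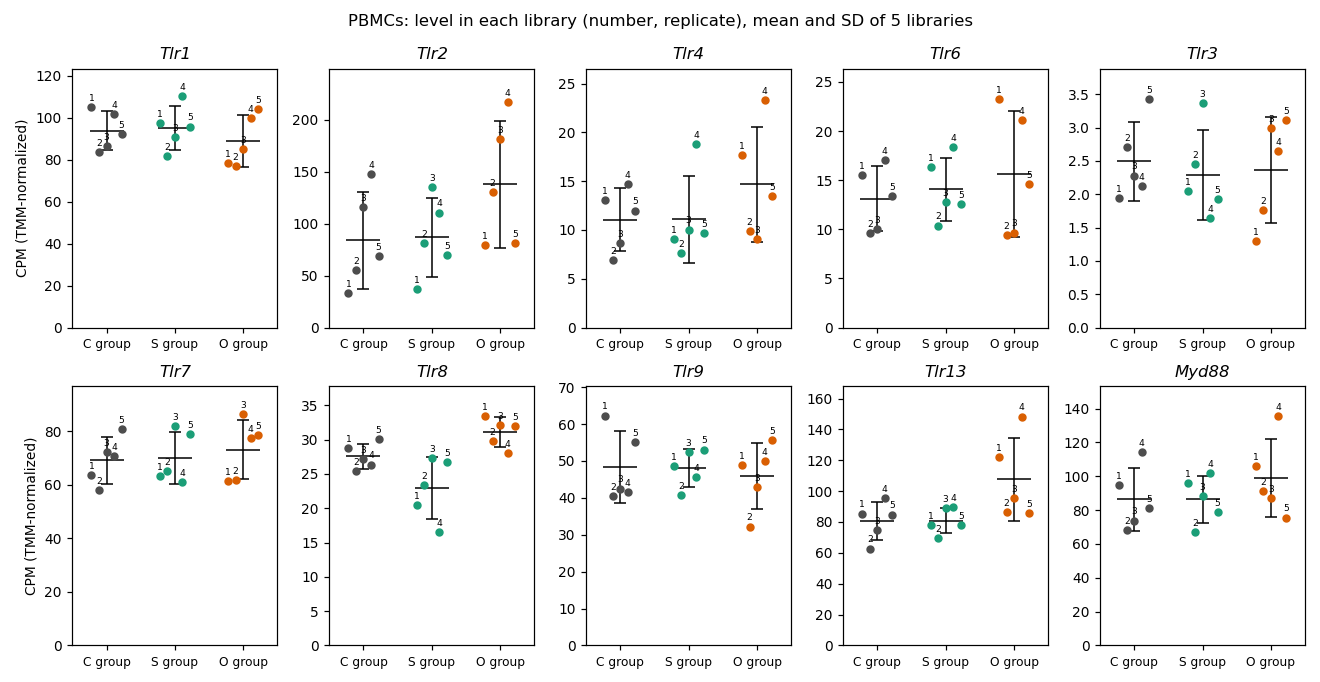
Level of each gene (y axis, CPM with TMM normalization) in the 15 PBMC libraries by group, with libraries numbered by replicate, means as horizontal bars and SD of 5 libraries as vertical bars. For Tlr8 the 5 S group libraries (16.5 to 27.4 CPM) lie below the 5 O group libraries (28.1 to 33.5 CPM), and for Tlr2 replicate 1 is the lowest library of each group.

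In O group against C group of PBMCs, Tlr8 and Tlr13 were higher in O group at unadjusted P values of 0.043 and 0.0298, with adjusted P of 0.405 and 0.381. These were 2 of the 10 genes, against 11.9% of 14726 genes. Tlr13 differed by 0.41 (SE 0.17) and Tlr8 by 0.18 (SE 0.08), and in both genes the ranges overlapped. The smaller value, Tlr8, was not past the threshold when all 3 groups were fitted together (unadjusted P = 0.152), and neither gene passed it without C group replicate 2, without C group replicate 3 or without O group replicate 1. Tlr13 also lost its call without O group replicate 4, and Tlr8 without C group replicate 4 or O group replicates 3 or 5. Tlr2 had a larger difference, 0.72, with 79.5, 131, 181, 218 and 81.5 CPM in O group and 33.1, 55.1, 116, 148 and 68.9 CPM in C group. With an SE of 0.41 its unadjusted P was 0.112, and 0.033 without C group replicate 4. With replicate number as a block 4 of the 10 genes were higher in O group, beside 12.2% of genes tested, and Tlr2 (0.79, unadjusted P = 0.00207, adjusted P = 0.403) and Tlr4 (0.37, unadjusted P = 0.0139) were added to Tlr8 and Tlr13. The deviations of same-numbered libraries correlated by 0.0405 to 0.419 in these 2 groups, over 0.1 in 4 of 5 pairs. This fell short of the rule for pairing used here, that every pair exceeds 0.1. S group libraries met that rule with both groups by the same numbers. The rule therefore does not settle whether O group and C group libraries pair. The remaining 7 genes lay between -0.08 for Tlr1 and 0.40 for Tlr4, with Tlr9 at -0.08, Tlr3 at -0.05, Tlr7 at 0.08, Myd88 at 0.19 and Tlr6 at 0.24. Markers differed at the same unadjusted threshold. The monocyte and macrophage sum was 8225 to 10267 CPM in O group, against 6658 to 8820 CPM in C group (1 of 12 higher), and the neutrophil sum 523 to 7326 CPM and 409 to 2363 CPM (1 of 11 higher). T cell markers were lower in O group in 11 of 12 and NK cell markers in 3 of 9, and erythroid markers were higher in 8 of 8. The part of these shifts in the Tlr8 and Tlr13 values was not tested. With the leukocyte score as a covariate, Tlr8 was at 0.18 (unadjusted P = 0.0474) and Tlr13 at 0.34 (unadjusted P = 0.00372). The mean score was 6.83 in O group and 6.75 in C group. Lists within it moved in opposite directions, so this fit cannot adjust for a shift of a single cell type.

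Platelet levels of the 10 genes were then compared with PBMC levels in a fit of the 30 libraries that included group, using CPM per kilobase of exon so that genes can be ranked. PBMCs were prepared from the blood left after the platelet step, so the tissues may share mice, but which mice entered which pool is not given and the libraries were fitted as separate samples. All 10 were lower in platelets at an adjusted P under 0.05, beside 45.2% of 16498 genes lower and 81.0% called in either direction. The median log2 difference was -1.67 for the 10 genes and -0.17 for all genes tested. Leukocyte markers were lower in platelets in the same fit, with 9 of 12 monocyte and macrophage markers (median log2 difference -2.31), 10 of 12 T cell markers (-1.51), 8 of 11 neutrophil markers (-1.49), 8 of 9 NK cell markers (-1.02) and 9 of 10 B cell markers (-0.70), whereas 8 of 8 erythroid markers were higher. Their part in the receptor differences was not tested. Tlr2 fell the most, from 22.1 ± 10.95 (SD, n = 15) CPM per kilobase in PBMCs to 1.69 ± 0.907 (SD, n = 15) in platelets, a log2 difference of -3.70 (SE 0.28, adjusted P = 3.8e-13). Tlr8 fell by 2.84 (SE 0.25), Tlr13 by 2.58 (SE 0.24) and Tlr7 by 2.15 (SE 0.14) on the log2 scale. Platelet and PBMC libraries did not overlap for these 4 genes, and 24.4% of all genes did not overlap in either direction.

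The differences of the other receptors were smaller. Tlr6 fell by 1.67 (SE 0.22), Tlr9 by 1.66 (SE 0.15), Tlr1 by 1.53 (SE 0.15), Tlr4 by 1.24 (SE 0.20) and Tlr3 by 0.66 (SE 0.21) on the log2 scale. The 9 receptors kept this call without each library in turn and under all 7 other settings tried. Myd88 differed by -0.22 (SE 0.10, adjusted P = 0.0392), close to the median of all genes. Its call held in 1 of the 7 other settings, was just lost with replicate number as a block (-0.21, adjusted P = 0.0505), and held without 18 of the 30 libraries in turn. With hemoglobin genes left out its value was -0.06 (adjusted P = 0.591) while the median of all genes was 0.00, and with total counts in place of normalization factors, a setting chosen after seeing the data, it was -1.42 beside a median of -1.38. With no filter beyond 1 count the median was -0.43 in edgeR and 0.44 in DESeq2. Among the libraries whose removal ended the Myd88 call, O group replicate 5 (-0.05) and O group replicate 1 (-0.10) of platelets left the smallest values.

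**Figure D5:**
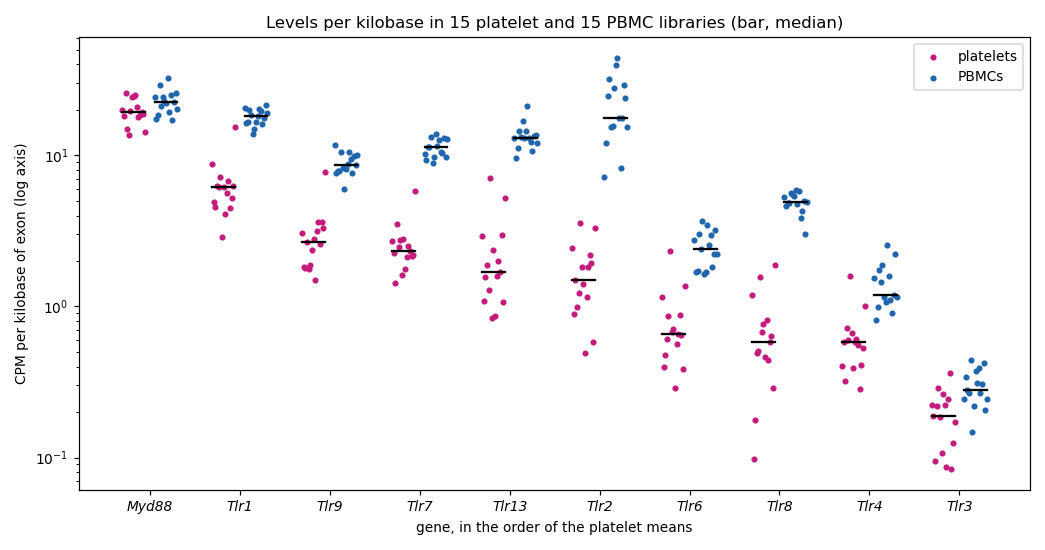
Level of each gene (y axis, CPM per kilobase of exon, log axis) in 15 platelet and 15 PBMC libraries, with medians as black bars and genes in the order of their platelet means. Myd88 has medians of 19.3 and 22.5 in platelets and PBMCs, and Tlr2 has medians of 1.51 and 17.7.

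The rank of the genes differed between the tissues. In platelets the mean level per kilobase was 19.8 for Myd88, 6.32 for Tlr1, 2.92 for Tlr9, 2.57 for Tlr7, 2.30 for Tlr13, 1.69 for Tlr2, 0.799 for Tlr6, 0.705 for Tlr8, 0.616 for Tlr4 and 0.191 for Tlr3. In PBMCs it was 22.8 for Myd88, 22.1 for Tlr2, 18.0 for Tlr1, 13.5 for Tlr13, 11.3 for Tlr7, 8.88 for Tlr9, 4.92 for Tlr8, 2.47 for Tlr6, 1.43 for Tlr4 and 0.298 for Tlr3. Neighbors in the platelet order were not all distinct, since Tlr9 exceeded Tlr7 in 9 of 15 libraries, Tlr6 exceeded Tlr8 in 9 of 15 and Tlr8 exceeded Tlr4 in 7 of 15. Tlr1 exceeded Tlr9 and Tlr2 exceeded Tlr6 in all 15. In PBMCs, Myd88 exceeded Tlr2 in 8 of 15 libraries and Tlr2 exceeded Tlr1 in 9 of 15, while Tlr9 exceeded Tlr8 in 15 of 15. As a share of the summed level per kilobase of the 10 genes, Myd88 took 53.4% ± 11.7 (SD over 15 libraries) in platelets and 21.6% ± 2.62 in PBMCs. The share of Tlr2 was 4.31% ± 1.73 in platelets and 20.1% ± 7.39 in PBMCs, and that of Tlr1 was close in both, at 16.4% ± 4.79 and 17.3% ± 2.92.

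Whether a group difference itself differed between platelets and PBMCs was tested as an interaction. For S group against C group, 1 of the 10 genes was called, Tlr9, whose difference was larger in platelets by 0.95 on the log2 scale (SE 0.33, unadjusted P = 0.00874, adjusted P = 0.632), beside 6.80% of 16094 genes. Without platelet S group replicate 5 the Tlr9 value was 0.57 (unadjusted P = 0.0262), and without PBMC S group replicate 3 it was 0.96 (unadjusted P = 0.0114), beside 5.55% of genes tested. With replicate number as a block it was 0.86 (unadjusted P = 0.00437), beside 4.62%. The values of the others were 0.98 for Tlr8, 0.58 for Tlr13, 0.45 for Tlr2, 0.32 for Tlr1, 0.30 for Tlr7, 0.15 for Tlr4, 0.12 for Tlr3, 0.10 for Tlr6 and -0.05 for Myd88, and Tlr8 passed without platelet C group replicate 1 (1.64, unadjusted P = 0.0103). Without platelet S group replicate 5 the same 9 genes had smaller or reversed values except Tlr3, with Tlr8 at 0.25, Tlr3 at 0.13, Tlr2 at 0.13, Tlr13 at 0.11, Myd88 at -0.01, Tlr7 at -0.13, Tlr1 at -0.14, Tlr4 at -0.21 and Tlr6 at -0.25. For S group against O group none was called, beside 12.3% of 15896 genes, and Tlr9 had the smallest P (0.70, SE 0.34, unadjusted P = 0.0548). Its value was 0.36 without platelet S group replicate 5. It passed, at 0.77 to 1.03, when any 1 of 6 other libraries was left out, platelet O group replicates 1, 3 and 5, platelet S group replicates 2 and 4 and PBMC O group replicate 2, and with the block (0.63, unadjusted P = 0.0402, beside 13.3% of genes tested). Without platelet O group replicate 1, 3 of the 10 genes were called, beside 16.7% of genes tested, as Tlr13 moved from 0.42 to 1.42 (unadjusted P = 0.0103) and Tlr2 from 0.91 to 1.51 (unadjusted P = 0.0249). The others were at 0.46 for Tlr7, 0.40 for Tlr1, 0.29 for Tlr8, 0.22 for Tlr3, -0.05 for Tlr6, -0.08 for Tlr4 and -0.25 for Myd88. Without that O group library Tlr6 was at 0.76 and Tlr4 at 0.52, and without platelet S group replicate 5 Tlr13 was at -0.00, Tlr8 at -0.40, Tlr1 at -0.03, Tlr7 at 0.07, Tlr6 at -0.36 and Tlr4 at -0.40. For O group against C group none was called, beside 5.35% of 15836 genes, and values ran from -0.48 for Tlr2 to 0.65 for Tlr8. Values moved with single platelet libraries. Tlr8 was at 1.32 (unadjusted P = 0.00982, adjusted P = 0.974, beside 5.03% of genes tested) without C group replicate 1 and at 0.38 without O group replicate 1, and Tlr2 was at -0.89 without O group replicate 1. Between these ends Tlr7 was at -0.20, Tlr3 at -0.14, Tlr1 at -0.12, Tlr6 at 0.13, Tlr13 at 0.13, Tlr4 at 0.18, Myd88 at 0.18 and Tlr9 at 0.22. Of these, Tlr13 was at -0.67, Tlr6 at -0.49 and Tlr4 at -0.22 without O group replicate 1, and Tlr9 at -0.10 without O group replicate 5.

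Of 69 other genes of the pathway, 60 were tested in platelets of S group against C group, and 3 were higher and none lower at an unadjusted P under 0.05, beside 4.29% and 2.13% of all genes. Ccl4 (1.09, SE 0.34, unadjusted P = 0.00608) and Ccl3 (0.99, SE 0.46, unadjusted P = 0.0484) encode chemokines induced through NF-kappaB. Unc93b1 (0.64, SE 0.26, unadjusted P = 0.0288) encodes the protein that carries endosomal Toll-like receptors to their compartment, and had 71.4 ± 28.6 CPM (SD) in S group, against 45.6 ± 14.5 CPM in C group. No adaptor, kinase, transcription factor or inhibitor of the lists passed. The count was 2 higher and 1 lower without S group replicate 5, beside 5.64% of all genes in either direction, and of the 3 genes named Ccl4 passed (1.16, unadjusted P = 0.00593), whereas Ccl3 (0.96, unadjusted P = 0.0707) and Unc93b1 (0.39, unadjusted P = 0.109) did not. As given above, 4 of 10 B cell and 6 of 12 T cell markers were higher in the same comparison, and their part in these values was not tested.

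In S group against O group of platelets, 9 of 61 pathway genes were higher and 3 lower, beside 7.23% and 6.67% of all genes, and none passed the adjusted threshold. Slc15a4, an endosomal transporter needed for Tlr7 and Tlr9 responses, was higher by 0.93 (SE 0.31, unadjusted P = 0.0108), Ccl3 by 1.26 (SE 0.42, unadjusted P = 0.0115), Sigirr, an inhibitory receptor, by 0.71 (SE 0.24, unadjusted P = 0.0125), and Irf3, a transcription factor of interferon induction, by 0.51 (SE 0.18, unadjusted P = 0.014). By list, accessory and trafficking proteins had 3 of 10 higher, kinases and ubiquitin ligases 2 higher and 2 lower of 18, target cytokines 2 higher and 1 lower of 7, and transcription factors and inhibitors 1 higher each. Without S group replicate 5 the counts were 7 higher and 3 lower (12.5% of all genes in either direction), and without O group replicate 1 they were 11 and 4 (14.9%). As given above, 8 of 10 B cell and 10 of 12 T cell markers were higher and 6 of 10 neutrophil markers lower in S group than in O group. The part of these markers in the pathway values was not tested. In O group against C group, 1 of 60 was higher, the adaptor Tirap (0.45, SE 0.18, unadjusted P = 0.0294), and 2 were lower, Sigirr (-0.52, unadjusted P = 0.0334) and Slc15a4 (-0.53, unadjusted P = 0.0403), beside 2.61% higher and 2.17% lower of all genes. Without O group replicate 1 none was higher and 5 were lower, beside 4.38% of all genes in either direction. With all libraries, 4 of 10 B cell and 6 of 12 T cell markers were lower and 4 of 10 neutrophil markers higher in O group than in C group. Their part in these pathway values was not tested.

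In PBMCs none of 66 pathway genes passed in S group against C group, beside 2.64% of all genes, and with replicate number as a block 5 were higher, beside 4.30%. In S group against O group, 2 were higher and 7 lower, beside 4.43% and 7.80% of all genes, and with the block 2 were higher and 10 lower, beside 13.8% of all genes in either direction. Tlr5, the flagellin receptor, was lower by 1.12 (SE 0.31, unadjusted P = 0.00389), with 2.30 ± 0.604 CPM (SD) in S group and 5.09 ± 2.13 CPM in O group. Lgmn, a protease that can cleave endosomal receptors, had a log2 fold change of -0.30 (unadjusted P = 0.0197), Lbp, which binds lipopolysaccharide, of -0.85 (unadjusted P = 0.0198) and Cd36, a partner of Tlr2, of -1.63 (unadjusted P = 0.0256). Platelet and megakaryocyte markers were lower in 1 of 11 (median log2 fold change -0.89), and summed to 2175 to 2986 CPM in S group and 1609 to 12107 CPM in O group. As given above, erythroid markers were lower in 8 of 8 and T cell markers higher in 11 of 12. The part of these markers in the pathway values was not tested. In O group against C group, 5 were higher and 2 lower, beside 7.56% and 4.39% of all genes. Irak3, an inhibitor of IRAK signaling, was higher by 0.26 (unadjusted P = 0.0123), Tlr5 by 0.96 (unadjusted P = 0.0144) and Cd36 by 1.69 (unadjusted P = 0.0233), and Sigirr had a value of -0.32 (unadjusted P = 0.0153). Erythroid markers were higher in 8 of 8 and T cell markers lower in 11 of 12 in this comparison. The median of 11 platelet and megakaryocyte markers was 0.65, with none called. Their part in these values was not tested.

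Between tissues, 46 of 67 pathway genes were lower and 6 higher in platelets at an adjusted P under 0.05, beside 45.2% of all genes lower and 81.0% called in either direction. Lower genes were 9 of 11 accessory and trafficking proteins, 4 of 5 adaptors, 11 of 18 kinases and ubiquitin ligases, 6 of 10 transcription factors, 6 of 11 inhibitors, 8 of 9 target cytokines and 2 of the other 3 Toll-like receptors. Ikbke, a kinase upstream of interferon regulatory factors, fell by 1.68 (SE 0.09), Ikbkb, a kinase of the NF-kappaB pathway, by 1.40 (SE 0.08) and Ccl3 by 3.67 (SE 0.24) on the log2 scale. Tollip, an inhibitor of IRAK activation, rose in platelets by 2.89 (SE 0.17), from 63.2 ± 8.95 to 473 ± 199 CPM (SD over 15 libraries each).

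For each member the genes most alike across the 15 platelet libraries were taken by Pearson's r of log2(CPM + 1) over 13878 genes, as a description, since all points share library, depth and blood cell mixture. Tlr9 was most like B4galt5 (r = 0.96) and Map4k2 (r = 0.95), Tlr7 like Ttc14 and Fnbp4 (r = 0.95 each) and Tlr1 like Pnisr and Eif2ak3 (r = 0.96 each). Tlr13 was most like Neat1 and Lilrb4a (r = 0.96 each), Tlr2 like Cd300a (r = 0.93) and Ccl9 (r = 0.92), and Tlr8 like Gpr141 (r = 0.91) and Vcan (r = 0.88). For Tlr4 they were Iqsec1 (r = 0.95) and Atp7a (r = 0.91), and for Tlr6 Gm45222 (r = 0.94) and Tmem131 (r = 0.93). Myd88 was most like Lgals1 (r = 0.90) and Efhd2 (r = 0.88), while the values of Tlr3, at 4 to 18 counts, gave its highest r with Gm14567 (0.78) and Fbxw10 (0.68).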

How the data were processed

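Platelet RNA and PBMC RNA were pooled, enriched for poly-A mRNA and sequenced, and per the labels and methods the authors aligned reads with HISAT2 2.0.5 and counted them per gene with featureCounts 1.5.0-p3. The deposited values are raw read counts for 54532 Ensembl genes per library, without normalization. The submitters' processing notes name build mm9, but 651 of 672 gene positions listed by the study were identical in GRCm38, whose GENCODE M21 coordinates are given here. Symbols were found for 54409 identifiers. Samples were grouped by their titles.

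Each pair of groups was fitted alone in R 4.3.3 with edgeR 4.0.16 (filterByExpr, TMM, quasi-likelihood F test, two-sided), called at an unadjusted P under 0.05 as in the study, with Benjamini-Hochberg adjusted P over all genes beside it. Standard errors are the log2 fold change divided by the square root of F. The study used DESeq2 1.16.1. DESeq2 1.42.0 and limma 3.58.1 (voom with quality weights) served as alternatives. Others were an edgeR fit with no filter beyond 1 count, size factors by RLE, a block for replicate number, a joint fit of the 3 groups, a leukocyte score as covariate (mean log2(CPM + 1) over B cell, T cell, NK cell, neutrophil and monocyte markers), hemoglobin genes left out, no normalization factors, and each library left out. The last but 1 of these, and counts of pathway genes with the block or without platelet S group replicate 5, platelet O group replicate 1, platelet C group replicate 1 or PBMC S group replicate 3, were chosen after seeing the data. The code was tested on simulated counts.

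Replicate numbers paired the PBMC samples of S group with those of C group (correlation of same-numbered deviations from group means 0.269 to 0.559) and of O group (0.109 to 0.389), as every pair exceeded 0.1. At least 1 pair was below it in every other comparison (platelets against PBMCs of O group, whose pool sizes were the same in both tissues, 0.0604 to 0.658). Platelets and PBMCs came from the same blood draws per the methods, but the labels do not match their pools, so they were fitted unpaired. No 2 libraries were identical.

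All 10 members were reported in each comparison. Of 69 other pathway genes, up to 4 with the smallest P past the threshold were named per comparison. The members, lists and tests were chosen with earlier results of these data known. Promoter sequences were matched for 8 of the 10 members in a RefSeq table (GRCm38.p6). Intervals cover 95%.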

Additional observations from a re-analysis of the deposited data

Results flagged for a closer look

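Values of single libraries stood far from the other 4 of their group, by a gap of more than 0.71 of the group range, in 9 of 60 groups of 5 libraries, where chance gives about 1 in 20 groups for independent groups of normal values. These groups are genes of the same libraries, on the CPM scale, and 8 of the 9 values came from 2 libraries, so the counts are not independent and cannot be read against that rate. In platelet S group replicate 5 these were Tlr1 at 36.5 CPM (next highest 15.1), Tlr7 at 16.7 CPM (next 6.84), Tlr8 at 4.74 CPM (next 1.54) and Tlr9 at 18.9 CPM (next 8.52). In platelet O group replicate 1 they were Tlr4 at 6.18 CPM (next 2.25), Tlr6 at 6.05 CPM (next 1.72), Tlr8 at 3.90 CPM (next 1.79) and Tlr13 at 21.4 CPM (next 6.57). The remaining value was Tlr4 at 18.8 CPM in PBMC S group replicate 4 (next 10.0), a library with 3723 CPM of neutrophil markers, where the other S group libraries of PBMCs had 429 to 979 CPM. B cell markers summed to 1520.2 CPM in platelet S group replicate 5 and neutrophil markers to 296 CPM, whereas platelet O group replicate 1 had 406 CPM and 3756 CPM. The part of these marker levels in the values was not tested beyond a fit with a leukocyte score as a covariate, in which the platelet Tlr9 value against C group was 0.57 in place of 0.97 and the platelet Tlr13 value of S group against O group -0.83 in place of 0.09.

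The difference of Tlr9 between S group and C group was larger in platelets than in PBMCs by 0.95 on the log2 scale (interaction test, unadjusted P = 0.00874, adjusted P = 0.632), and by 0.57 without platelet S group replicate 5. Between the same groups 4 of 10 B cell and 6 of 12 T cell markers were higher in platelets of S group, and none of either list in PBMCs, and the difference between tissues itself passed an unadjusted P of 0.05 for 5 of 12 T cell and none of 10 B cell markers.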

How the results depend on the processing

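Counts of the 10 genes past the threshold kept within 1.5 times of the reported count in most settings, and the exceptions follow, each with the percent of all genes called in the same setting. For platelets, S group against C group gave 0 in place of 1 with the leukocyte score as a covariate (4.43%), and 1 to 3 with each library left out (4.14% to 11.4%). S group against O group gave 1 in place of 2 in edgeR without the low-count filter (11.6%), with the replicate block (11.6%) and in a joint fit of 3 groups (16.0%), and 1 to 2 with libraries left out (9.60% to 16.0%). O group against C group gave 1 in place of 0 with voom (6.65%), and 0 to 1 with libraries left out (3.47% to 7.93%). For PBMCs, S group against C group gave 1 in place of 0 without the filter (4.14%), with the replicate block (4.30%) and in the joint fit (2.06%), and 0 to 1 with libraries left out (2.13% to 3.93%). S group against O group gave 4 in place of 2 with the replicate block (13.8%), and 1 to 3 with libraries left out (9.05% to 18.0%). O group against C group gave 1 in place of 2 without the filter (8.31%) and in the joint fit (13.7%), 4 with the replicate block (12.2%), and 0 to 2 with libraries left out (8% to 17.6%). The interaction of S group against C group gave 2 in place of 1 without the filter (6.80%), 3 without normalization factors (11.4%), and 1 to 2 with libraries left out (5.55% to 12.6%). That of S group against O group gave 1 in place of 0 with DESeq2 (6.22%), RLE size factors (11%), the replicate block (13.3%) and hemoglobin genes left out (11.1%), 2 without the filter (7.71%), and 0 to 3 with libraries left out (9.93% to 16.7%). That of O group against C group gave 1 in place of 0 without normalization factors (8.33%), and 0 to 1 with libraries left out (4.26% to 10.1%). The cause of these changes was not tested. The setting without normalization factors was chosen after seeing the data, and it moved the median log2 difference of all genes between tissues from -0.17 to -1.38, with 2351 of 15079 unadjusted calls higher in platelets in place of 5962 of 13499. Between tissues 9 to 10 genes passed with libraries left out.

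Tlr13 in platelets of S group against O group turned from 0.09 to -0.83 with the leukocyte score as a covariate. Tlr6 and Tlr8 passed in that setting while Tlr9 and Myd88 did not, so the genes called differed. No other value past the threshold changed direction. In platelets, and in PBMCs of O group against C group, same-numbered samples did not meet the rule for pairing, which does not show that they are unpaired. The block ended the Myd88 call of platelets in S group against O group (-0.30, unadjusted P = 0.0831) and the Myd88 call between tissues (adjusted P = 0.0505). Tlr3 and Tlr8 in platelets had as few as 4 and 5 counts in a library, and the part of depth in their spread was not tested. With the block, 12 pathway genes were higher and 1 lower in PBMCs of O group against C group, in place of 5 and 2, beside 12.2% of all genes.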
